A study of Homo sapiens with 33 samples.

Results

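NCI-H28 (H28) is a malignant pleural mesothelioma (MPM) cell line of the sarcomatoid type that responds to palbociclib, an inhibitor of the cyclin-dependent kinases CDK4 and CDK6. The comparison described here is that of H28 cells kept in 1 µM palbociclib with H28 cells kept in 0.1% DMSO, the solvent. It was taken from the column names of the expression matrix: 3 palbociclib and 3 DMSO libraries, 6 of the 33 libraries of the series, paired by replicate number. Replicates 1 and 2 were collected after 9 days and replicate 3 after 10 days. The study listed CDKN2A and CDKN2B as deleted in H28, with a deletion within BAP1, and listed RB1, NF2 and LATS2 as wild-type. The H28 response was set against that of 3 other sensitive MPM cell lines treated in the same way, H2052 (2 pairs), H2452 (3 pairs) and MSTO-211H (3 pairs), whose CDKN2A is also listed as deleted. Each line stands for 1 tumour, so the comparison is of these cultures and not of tumour types. A further H28 library, collected 48 h after removal of the drug, is described by its values only. It shares day 10 with replicate 3 and is set against that replicate. The labels used here do not say that both come from the same experiment.

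CDK4 and CDK6, bound to a D-type cyclin, phosphorylate the retinoblastoma protein (pRb), which otherwise holds E2F transcription factors inactive and keeps genes for DNA synthesis and mitosis silent. The INK4 protein p16, product of CDKN2A, is the natural inhibitor of these kinases, and its gene is often lost in mesothelioma. A CDK4/6 inhibitor therefore halts cells before S phase, and a long arrest can take on features of senescence, a stable growth arrest with an enlarged lysosomal compartment and secretion of matrix, growth factor and inflammatory proteins. Which secreted and differentiation genes accompany the arrest can vary between cell types.

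Expression is given as CP20M, the reads of a gene per 20000000 reads counted on genes, rounded up by the authors to whole numbers. A gene was called when it changed by more than 1.5-fold with a false discovery rate under 0.05 in limma on log2(CP20M + 10), with the replicate number as a block. Adjusted p-values are Benjamini-Hochberg values over all genes tested, and ± after a log2 fold change is its standard error. A library of fewer reads skips some whole numbers when it is scaled up, and the gaps among its low values put the depth of DMSO replicate 2 near 16000000 counted reads, of palbociclib replicate 2 near 12800000 and of palbociclib replicate 3 near 16400000. The other 3 H28 libraries skipped none and so held about 20000000 reads or more. Replicate 2 stood apart: the mitochondrial ribosomal RNA MT-RNR1 was at 10142 and 27648 CP20M in its DMSO and palbociclib libraries, against 307 to 955 CP20M in the other 4. Its response was also the smallest, with 2215 genes changed over 1.5-fold against 3582 in pair 1 and 4260 in pair 3.

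The label was checked against mesothelial markers. Of 20 such markers 9 reached 100 CP20M in a library of H28, among them WT1 at 107 to 330 CP20M. MSLN (mesothelin) stayed at 1 to 15 CP20M and CALB2 (calretinin) at 0 to 2 CP20M, so these epithelioid markers were all but absent. KRT19 (keratin 19) was the marker among them that rose (0.99 on the log2 scale). The summed level of the 20 was 44468 to 57041 CP20M in DMSO and 48758 to 55092 in palbociclib. Of 22 markers of other cell types only MYH11, which fell by 0.93, and CD68, which rose by 0.89, reached 100 CP20M, 3 were at 0 in all 6 libraries, and the sum was 410 to 543 CP20M in DMSO and 401 to 643 in palbociclib. CDKN2A and CDKN2B were listed at 0 in every H28 library.

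Palbociclib lowered 1528 of 14073 genes tested in H28 (10.9%) and raised 1232 (8.75%). Of the 2760 called genes 2752 moved the same way in all 3 pairs. Over all genes tested, every palbociclib library lay above every DMSO library for 14.5% and below for 24.6%. The balance of the calls depends on the scaling, since median-of-ratios scaling gave 1214 lower and 1522 higher and shifted the median of all genes from -0.08 to -0.00033 on the log2 scale. Leaving out replicate 1 left 791 lower and 573 higher, and leaving out replicate 2 gave 1992 and 1540.

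The shared core of the response was the fall of cell cycle genes. All 18 genes of the study's proliferation list fell in H28, with a median log2 fold change of -1.99 against -0.08 over all genes tested. That list was chosen by the study on these samples and its count is not independent evidence. Of 30 mitosis and kinetochore genes 29 fell (median -1.76), of 29 replication genes tested 27 fell (median -1.09) and of 14 genes of the study's DNA repair list 13 fell (median -1.11). No member of these lists rose, while 10.9% of all genes tested fell and 8.75% rose. In bulk RNA fewer cycling cells and less of these transcripts per cell cannot be told apart. BUB3, ORC6, GINS4 and CHEK1 were the members that did not pass.

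MKI67, the gene of the proliferation antigen Ki-67, was at 11301, 7923 and 10717 CP20M in DMSO and at 1990, 2496 and 1816 CP20M in palbociclib. All palbociclib libraries lay far below all DMSO libraries, a 4.72-fold fall (log2 fold change -2.24 ± 0.18, adjusted p = 0.00127). LMNB1, which encodes the nuclear lamina protein lamin B1, fell 5.1-fold, from 4594, 3481 and 3795 CP20M to 833, 971 and 546 CP20M (adjusted p = 0.00123). E2F8, an E2F family repressor, fell from 360, 248 and 309 to 40, 41 and 33 CP20M (log2 fold change -2.71 ± 0.18). CDKN2C, the gene of the INK4 inhibitor p18, fell from 407, 188 and 440 to 54, 62 and 62 CP20M (-2.27 ± 0.26), so an inhibitor of the drug's targets was among the genes that fell.

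The depth of the fall was set beside that in the other lines. For the proliferation list the median change on the log2 scale was -1.99 in H28, -2.28 in H2052, -3.64 in H2452 and -1.67 in MSTO-211H. Only BUB1, a spindle checkpoint kinase, had a difference that was called, with log2 fold changes of -1.29 in H28 and -2.03, -3.64 and -2.35 in H2052, H2452 and MSTO-211H. That difference of 1.38 ± 0.39 (adjusted p = 0.0294) lost its call without H28 replicate 1, without H28 replicate 2 and without the H2452 line, among other settings. The 8 largest falls in H28 were all histone genes, from HIST1H3H with a log2 fold change of -3.38 ± 0.26 to HIST2H2AB with -2.99 ± 0.31. Of 38 histone cluster genes tested 36 fell and 2 rose, beside 10.9% and 8.75% of all genes. Histone genes have near-identical copies, so the share of each single gene is uncertain.

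In the 48 h washout library every one of the 18 proliferation genes was above palbociclib replicate 3, by a median of 1.15 on the log2 scale, and every one was still below the lowest DMSO library. MKI67 stood at 4824 CP20M. This is 1 library and no test was made.

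Promoter sequence was set beside 3 lists, those of mitosis and replication because most of their members fell together, and that of hypoxia and glycolysis because most of its members did not pass the test in H28 while its median change was above 0 in the other lines. The 250 bases before each gene start were read from RefSeq promoters (GRCh38.p14) and searched on both strands for the cell cycle homology region TTTGAA, for the E2F letters TTTGGCGC, TTTCGCGC, TTTCCCGC or TTTGCCGC, and for the core of the hypoxia response element, ACGTG or GCGTG. The first is bound by the MuvB complexes of late cell cycle genes, the second by E2F factors, and the third by hypoxia-inducible factors. TTTGAA was found in 51.7% of 29 promoters of 24 mitosis genes, in 0% of 31 promoters of the replication list and in 13.3% of all 35116 promoters. The E2F letters were found in 35.5% of the 31 promoters of 27 replication genes against 2.79% of all promoters. The hypoxia letters were found in 66.7% of 42 promoters of 26 hypoxia and glycolysis genes, in 69% of the mitosis promoters, in 58.1% of the replication promoters and in 43.2% of all, so they did not mark the hypoxia list off from the others. A match describes the letters and is not a binding site.

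The 2 mitosis genes and the 2 replication genes printed are those with the largest falls in H28 among members whose promoter held a match. The 2 hypoxia genes are those with the largest called differences, also among members with a match. Only called members were considered, by the first promoter listed for each, and not all chromosomes were covered. Capitals mark the match on either strand, and each sequence is 250 bases of GRCh38.p14, 5′ to 3′ on the gene's strand.
KIF11, chr10:92592880-92593129, plus strand: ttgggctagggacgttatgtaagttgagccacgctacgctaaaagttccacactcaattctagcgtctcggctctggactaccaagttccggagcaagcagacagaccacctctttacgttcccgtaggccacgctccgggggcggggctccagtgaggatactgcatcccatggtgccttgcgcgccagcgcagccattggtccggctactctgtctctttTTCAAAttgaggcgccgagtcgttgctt
ASPM, chr1:197146670-197146919, minus strand: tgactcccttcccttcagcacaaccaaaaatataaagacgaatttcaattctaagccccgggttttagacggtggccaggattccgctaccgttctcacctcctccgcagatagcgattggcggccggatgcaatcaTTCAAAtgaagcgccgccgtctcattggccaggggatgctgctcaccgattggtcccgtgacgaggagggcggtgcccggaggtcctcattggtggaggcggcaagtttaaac
GINS2, chr16:85688955-85689204, minus strand: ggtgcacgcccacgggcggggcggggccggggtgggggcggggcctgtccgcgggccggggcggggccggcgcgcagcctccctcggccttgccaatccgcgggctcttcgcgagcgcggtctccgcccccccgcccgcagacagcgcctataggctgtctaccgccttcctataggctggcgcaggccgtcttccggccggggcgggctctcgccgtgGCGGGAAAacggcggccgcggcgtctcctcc
LIG1, chr19:48170345-48170594, minus strand: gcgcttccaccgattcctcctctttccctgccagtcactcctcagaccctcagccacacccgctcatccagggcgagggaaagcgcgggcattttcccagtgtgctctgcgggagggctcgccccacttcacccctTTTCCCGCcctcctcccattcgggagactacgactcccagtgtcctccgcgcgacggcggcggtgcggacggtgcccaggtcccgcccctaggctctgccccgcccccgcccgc
ANGPTL4, chr19:8363905-8364154, plus strand: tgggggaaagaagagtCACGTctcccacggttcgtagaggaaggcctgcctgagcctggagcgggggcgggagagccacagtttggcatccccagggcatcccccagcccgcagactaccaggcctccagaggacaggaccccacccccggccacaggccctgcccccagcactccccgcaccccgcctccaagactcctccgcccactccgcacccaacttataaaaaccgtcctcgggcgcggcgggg
ADM, chr11:10304823-10305072, plus strand: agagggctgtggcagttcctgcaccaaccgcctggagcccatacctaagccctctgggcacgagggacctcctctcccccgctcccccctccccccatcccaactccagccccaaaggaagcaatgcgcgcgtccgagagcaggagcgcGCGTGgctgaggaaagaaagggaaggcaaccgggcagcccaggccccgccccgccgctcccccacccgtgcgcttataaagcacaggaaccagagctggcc

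KIF11 and ASPM, which act at the mitotic spindle, fell by 2.2 and by 2.16 on the log2 scale in H28. GINS2 of the replicative helicase fell by 2.16 and LIG1, which joins Okazaki fragments, by 1.49. ADM and ANGPTL4 are described with the hypoxia genes.

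**Figure D1:**
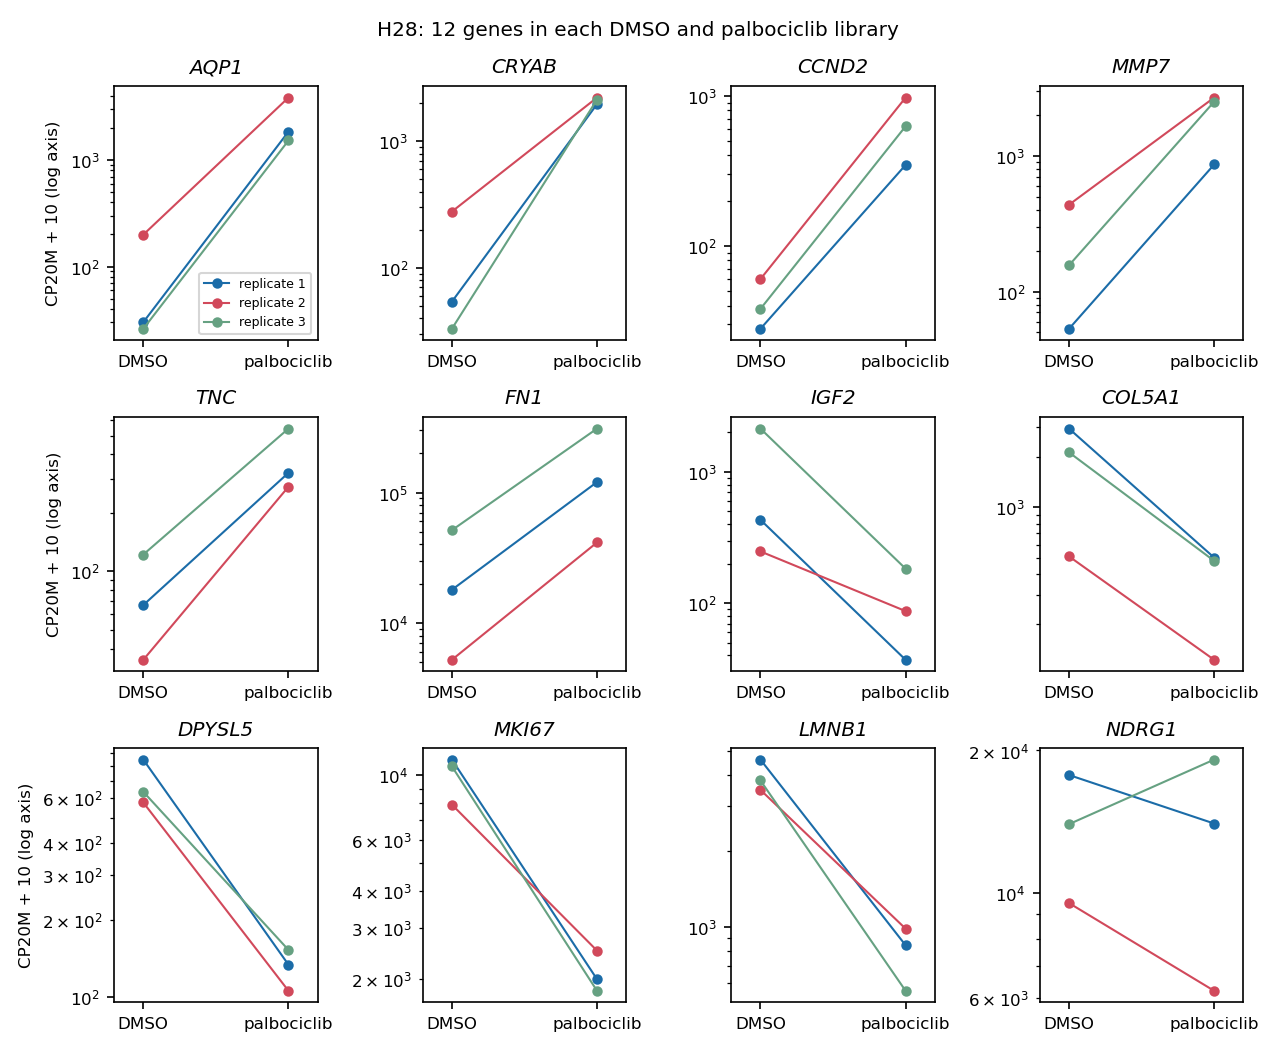
Levels of 12 genes in H28, each panel with DMSO on the left and palbociclib on the right, CP20M + 10 on a log axis, and a line for each replicate pair. AQP1, CRYAB, CCND2, MMP7, TNC and FN1 rose in every pair, IGF2, COL5A1, DPYSL5, MKI67 and LMNB1 fell in every pair, and NDRG1 moved both ways (6190 to 19124 CP20M in palbociclib).

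The calls of H28 were set beside those of each other line. The other lines had more falls than rises, 3430 against 986 in H2052, 1971 against 1203 in H2452 and 2573 against 1805 in MSTO-211H, so a fall in H28 met more calls than a rise did. Of the 1528 genes that fell 479 (31.3%) were also called down in each of the 3 other lines and 329 (21.5%) in none of them. Of the 1232 genes that rose 85 (6.9%) were called up in each other line and 637 (51.7%) in none. These are counts of calls, and a gene not called in another line is not thereby shown to differ there.

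The difference itself was tested in a fit over the 22 libraries of the 4 lines, as the H28 response minus the mean response of H2052, H2452 and MSTO-211H. Of 16759 genes tested 740 responded lower in H28 (4.42%) and 1427 higher (8.51%). A gene under 100 CP20M in every H28 library was also tested here when another line reached that level. H28 could show little response for such a gene, and its difference mostly reflects the other lines. Upper-quartile scaling turned this balance to 1324 lower and 865 higher, with the median difference moving from 0.09 to -0.08, whereas median-of-ratios scaling gave 1050 and 1021. Genes were then kept that were called in H28, called in the difference, and more than 1.5-fold apart from each of the 3 other lines in the same direction. This left 369 genes raised and 112 lowered in H28 in a way that set it apart. Without H28 replicate 1 they numbered 155 and 68. Of the 369 genes 108 never reached 100 CP20M in any library of any of the 3 other lines, and of the 112 genes 30 did not, so part of the contrast is that the other lines hardly express the gene.

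**Figure D2:**
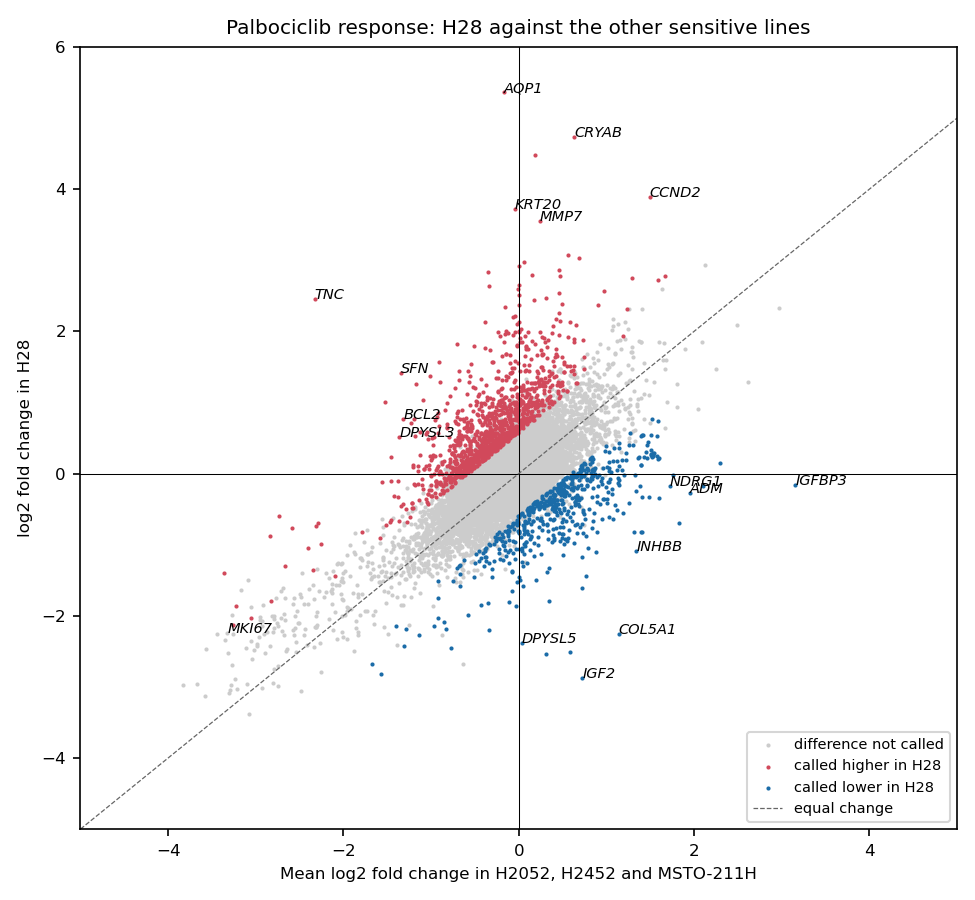
Each point is a gene tested in H28, with the mean log2 fold change of H2052, H2452 and MSTO-211H on the horizontal axis and the log2 fold change of H28 on the vertical axis. Red and blue points are genes whose difference was called, such as AQP1 (5.37 in H28), TNC (2.46), IGFBP3 (-0.16) and IGF2 (-2.87), and the dashed line marks equal change.

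AQP1, a water channel, showed the largest rise in H28. It was at 20, 189 and 16 CP20M in DMSO and at 1839, 3850 and 1516 CP20M in palbociclib. The groups were far apart, although replicate 2 started higher, and the rise was 41.2-fold (log2 fold change 5.37 ± 0.32, adjusted p = 0.00102). In the 16 libraries of the other lines AQP1 lay between 0 and 41 CP20M, and the difference from their response was 5.53 ± 0.33 (adjusted p = 1.27e-05). AQP1 lies on chromosome 7 at 30911853 to 30925517 on the plus strand (GRCh38), inside the span of the read-through gene AC004691.2 (30852273 to 30923812). The rise of AC004691.2 from 21 to 99 CP20M to 735 to 1868 CP20M may therefore hold reads of AQP1, and the genes were not counted as separate findings.

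CRYAB, the small heat shock protein alpha B-crystallin, rose from 44, 268 and 23 CP20M to 1955, 2203 and 2124 CP20M. The palbociclib libraries were nearly equal while DMSO replicate 2 lay above the others, and the log2 fold change was 4.73 ± 0.50 (adjusted p = 0.00177). CRYAB was also called up in H2452, by 1.36 on the log2 scale, so H28 differed in size (4.10 ± 0.57, adjusted p = 0.00108) rather than by its direction alone. MMP7, the matrix metalloproteinase matrilysin, rose from 43, 427 and 146 to 857, 2693 and 2512 CP20M. All palbociclib libraries exceeded all DMSO libraries (log2 fold change 3.56 ± 0.27), and MMP7 never exceeded 16 CP20M in the other lines.

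KRT20, an intestinal-type keratin, rose from 17, 5 and 5 CP20M to 690, 166 and 103 CP20M (log2 fold change 3.72 ± 0.35, adjusted p = 0.00145). The size of its rise varied between the pairs, from 2.91 to 4.70, and the other lines held at most 3 CP20M. SLC17A3, a urate and phosphate transporter of the kidney, was at 49, 143 and 89 CP20M in DMSO and at 709, 1184 and 440 CP20M in palbociclib (2.92 ± 0.25). GSTA1, a glutathione transferase, went from 5 CP20M in each DMSO library to 61, 43 and 212 CP20M (2.65 ± 0.43). SLC17A3 and GSTA1 were listed at 0 in all 16 libraries of the other lines, where no response could have been seen.

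NPBWR1, a neuropeptide receptor, was at 2 to 3 CP20M in DMSO and at 79 to 102 CP20M in palbociclib. TM4SF4, a tetraspanin-like membrane protein, was at 0 to 8 CP20M in DMSO and at 20 to 168 CP20M in palbociclib, and its call in H28 was lost without replicate 1 (log2 fold change 1.35 to 4.81 over the alternatives). At such low starting levels the fold depends on the pseudocount. DNAH5, an axonemal dynein heavy chain, rose from 258, 1048 and 171 to 2160, 9094 and 1406 CP20M. Its level differed widely between replicates but its rise hardly did, with 3.02, 3.11 and 2.97 in the 3 pairs. H2052 and H2452 were called up for DNAH5 as well, by 1.17 and 1.33. ATP8A2, a phospholipid flippase, rose from 8, 32 and 16 to 250, 353 and 116 CP20M (3.08 ± 0.31).

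CCND2, the gene of cyclin D2, was the D-type cyclin that set H28 apart. It was at 18, 50 and 28 CP20M in DMSO and at 336, 962 and 616 CP20M in palbociclib, a 14.9-fold rise (log2 fold change 3.90 ± 0.16, adjusted p = 0.000296). The rise was 1.76 in H2452, 2.51 in MSTO-211H and 0.21 in H2052, and the difference was 2.40 ± 0.41 (adjusted p = 0.00283). CCND1, the cyclin D1 gene, rose in H28 from 17978, 9533 and 22292 to 30574, 24400 and 36254 CP20M (0.94 ± 0.15), with rises of 0.97, 1.27 and 1.51 in the other lines. CDK6, a target of the drug, was at 8730, 11094 and 20128 CP20M in DMSO and at 6528, 11929 and 10128 CP20M in palbociclib. The groups overlapped and CDK6 was not called in H28 (-0.43 ± 0.19, adjusted p = 0.12), whereas it was called up in H2052 (0.66) and H2452 (0.94), and the difference was -1.07 ± 0.19 (adjusted p = 0.00322). Of 22 cyclin, CDK and pocket protein genes tested in H28 CCND1 and CCND2 rose and 8 fell, beside 8.75% and 10.9% of all genes. The share that rose was thus near that of all genes.

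TNC moved against the other lines. It encodes tenascin-C, a matrix glycoprotein of wounds and tumour stroma. In H28 it was at 57, 25 and 112 CP20M in DMSO and at 312, 263 and 534 CP20M in palbociclib. Every treated library was above every control (log2 fold change 2.46 ± 0.20, adjusted p = 0.00127), and the pairs gave 2.26, 2.96 and 2.16. In H2052 it went from 461 to 799 CP20M down to 35 to 59, in H2452 from 2021 to 5222 down to 446 to 1883, and in MSTO-211H from 79 to 188 down to 11 to 73. The difference was 4.79 ± 0.43 (adjusted p = 9.95e-05) and held its call under each of the 22 alternatives.

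COL5A1, a fibrillar collagen chain, moved the other way. It fell in H28 from 2944, 500 and 2121 to 491, 113 and 469 CP20M, a 4.77-fold fall (log2 fold change -2.26 ± 0.13, adjusted p = 0.000861). It was called up in H2052 (1.40) and MSTO-211H (1.95) and stood at 0.06 in H2452, and the difference was -3.40 ± 0.27 (adjusted p = 4.61e-05). In all 42 genes were called in H28 against a call of opposite direction in at least 2 other lines, with the difference called too, 27 of them raised in H28 and 15 lowered.

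Other members of that group rose in H28 and fell elsewhere. SFN, the 14-3-3 sigma gene, went from 52, 19 and 47 to 137, 46 and 225 CP20M. The ranges overlapped because replicate 2 was low in both conditions (1.41 ± 0.26, adjusted p = 0.00874), and the call was lost without replicate 1. SFN fell by 2.28 in H2052, where it was low (29 to 70 CP20M in DMSO and 1 to 2 in palbociclib), and by 1.52 in H2452. ITGA7, a laminin-binding integrin chain, rose from 124, 127 and 86 to 300, 310 and 232 CP20M (1.26 ± 0.13), and fell by 1.59 in H2052 and by 1.87 in H2452. FIGNL2 rose from 194, 293 and 196 to 706, 475 and 630 CP20M (1.38 ± 0.22), and fell by 1.27 and by 1.06 in those lines. There it was low, going from 42 to 44 CP20M down to 10 to 14 in H2052 and from 13 to 27 down to 0 to 7 in H2452. At such levels the fold depends on the pseudocount. HIST1H2BE rose from 48, 73 and 75 to 109, 137 and 180 CP20M, while 36 of 38 histone cluster genes fell in H28.

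BCL2, the founding inhibitor of apoptosis, was at 349, 799 and 281 CP20M in DMSO and at 688, 1027 and 567 CP20M in palbociclib. It was higher in each pair although the groups overlapped (0.77 ± 0.15, adjusted p = 0.0102). BCL2 fell by 2.01 in H2052 and by 1.47 in MSTO-211H and was at -0.47 in H2452, and the difference was 2.08 ± 0.21 (adjusted p = 0.000177). The call in H28 was lost without replicate 1 and that of the difference was not lost under any alternative. BMF, a BH3-only killer protein, fell in H28 from 385, 755 and 552 to 98, 212 and 54 CP20M (-2.26 ± 0.27), with -0.05, -0.75 and -1.83 in H2052, H2452 and MSTO-211H and no called difference (adjusted p = 0.178). Of 14 BCL2 family genes tested 2 rose and 3 fell, beside 8.75% and 10.9% of all genes.

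**Figure D3:**
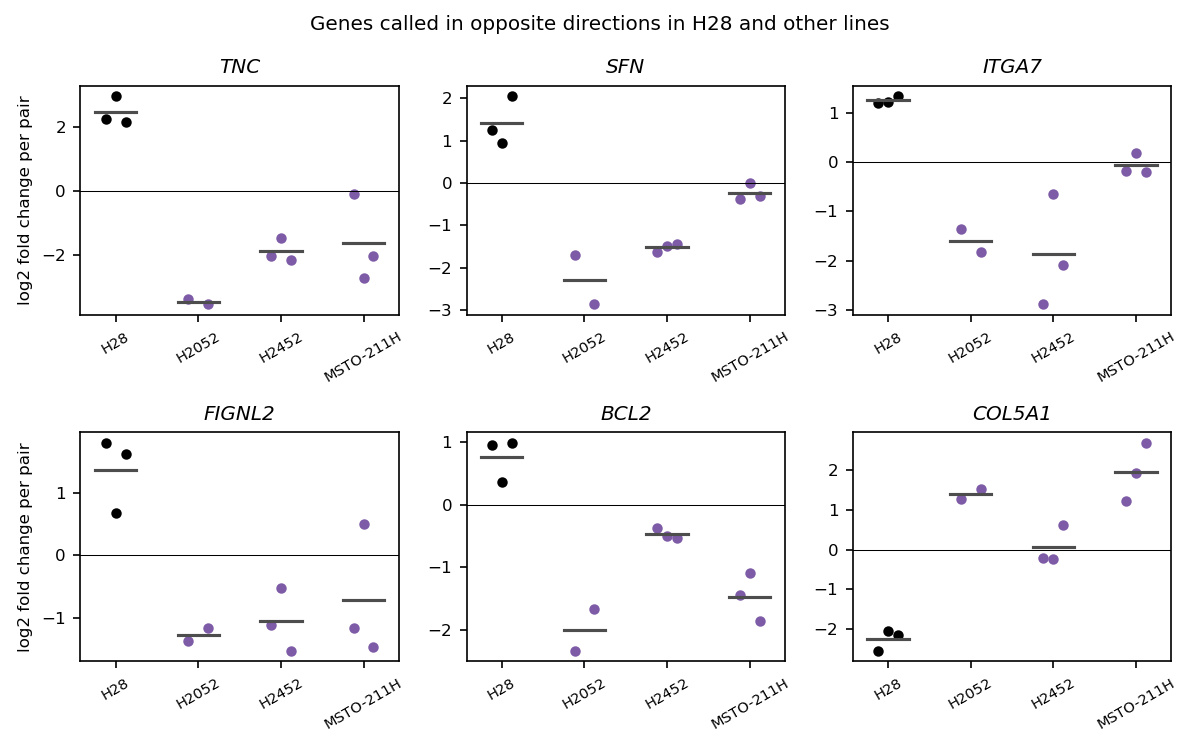
Log2 fold change of each replicate pair for 6 genes in H28 (black) and the other lines (purple), with a bar at the mean of the pairs. TNC, SFN, ITGA7, FIGNL2 and BCL2 lie above 0 in every H28 pair, and COL5A1 lies below 0 in every H28 pair (-2.05 to -2.56).

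IGF2 was the leading fall that set H28 apart. Insulin-like growth factor 2 is a fetal growth factor. It was at 422, 238 and 2130 CP20M in DMSO and at 27, 77 and 173 CP20M in palbociclib. Replicate 3 held the most in both conditions, and the groups did not overlap (log2 fold change -2.87 ± 0.39, adjusted p = 0.00351), the smallest fall being that of replicate 2 (-1.51). IGF2 was called up in MSTO-211H (1.70), and the difference was -3.59 ± 0.42 (adjusted p = 0.000379). The other lines held at most 170 CP20M. In DMSO they were at 85 to 129 CP20M in H2052, 3 to 9 in H2452 and 8 to 31 in MSTO-211H. A fall could hardly have been seen in H2452 and MSTO-211H, and the rise in MSTO-211H started from a low level. INS-IGF2 and AC132217.1 fell with IGF2 in H28. They overlap IGF2 on the minus strand of chromosome 11 (IGF2 from 2129112 to 2158391, INS-IGF2 from 2132538 to 2161209 and AC132217.1 from 2129121 to 2129964, GRCh38), so their reads cannot be told apart and they count as 1 finding.

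Genes of the same axis were read alongside. IGFBP3, a secreted binding protein for insulin-like growth factors, was at 14764, 3248 and 11664 CP20M in DMSO and at 9145, 3008 and 14538 CP20M in palbociclib. These groups overlapped and IGFBP3 did not pass the test in H28 (-0.16 ± 0.18, adjusted p = 0.507), while it rose by 2.48, 3.12 and 3.87 in H2052, H2452 and MSTO-211H. The difference of -3.32 ± 0.47 (adjusted p = 0.00116) was the largest among the genes raised in each other line and not called in H28. IGFBP6, which prefers IGF2, rose in H28 by 1.36, with 0.18, 0.48 and -0.01 in H2052, H2452 and MSTO-211H.

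The other falls that set H28 apart were at moderate levels. DPYSL5, a cytosolic phosphoprotein of axon guidance, went from 835, 565 and 623 to 124, 96 and 143 CP20M (-2.38 ± 0.15, adjusted p = 0.00111) and never exceeded 3 CP20M in the other lines. COL14A1, a fibril-associated collagen, fell from 281, 89 and 327 to 59, 22 and 97 CP20M, with overlapping ranges but a fall in each pair. SYT8, a synaptotagmin, fell from 201, 162 and 256 to 37, 46 and 66 CP20M. COL14A1 and SYT8 did not exceed 8 and 2 CP20M in the other lines. For these and for DPYSL5 no fall could have been seen there. CYP1B1, a cytochrome P450 of oestrogen and xenobiotic metabolism, fell from 164, 134 and 364 to 45, 71 and 65 CP20M (-1.60 ± 0.28). Its difference of -2.33 ± 0.54 was not called without H28 replicate 1 or replicate 3. PMP22, a myelin membrane protein, was at 105, 69 and 191 CP20M in DMSO and at 66, 41 and 86 CP20M in palbociclib (-0.77 ± 0.19), and rose by 0.83, 0.84 and 0.84 in the other lines.

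Hypoxia and glycolysis genes were the list with the most differences called lower in H28. Hypoxia-inducible factors switch these genes on at low oxygen, and they encode glycolytic enzymes, glucose transporters and secreted factors. Of 29 members tested in H28 CA12 rose, BNIP3 and PFKFB4 fell and 26 did not pass, with a median of -0.15. Of all genes tested in H28 8.75% rose and 10.9% fell. The median over the 30 members tested across the lines was 0.60 in H2052, 0.40 in H2452 and 0.36 in MSTO-211H. The difference was called lower in H28 for 13 of the 30 and higher for none, beside 4.42% lower among all genes, and 26 of the 30 had a difference below 0. The 13 lay within 1.5-fold of that number under every alternative setting.

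NDRG1, a hypoxia-induced stress protein, was at 17738, 9500 and 13956 CP20M in DMSO and at 13999, 6190 and 19124 CP20M in palbociclib. It fell in 2 pairs and rose in the other (-0.17 ± 0.20, adjusted p = 0.526), whereas in H2052 it went from 3902 to 5533 CP20M up to 17376 to 18692. The difference was -1.89 ± 0.29 (adjusted p = 0.00164). ADM, the vasodilator adrenomedullin, was at 1074, 680 and 902 CP20M in DMSO and at 833, 444 and 1012 CP20M in palbociclib (-0.27 ± 0.15, adjusted p = 0.203). It rose by 1.69, 2.41 and 1.76 in H2052, H2452 and MSTO-211H (difference -2.22 ± 0.34, adjusted p = 0.00168). Levels in DMSO differed between the lines. NDRG1 was at 9500 to 17738 CP20M in H28 and at most at 6053 CP20M in the others, whereas ADM was highest in H2052, at 2094 to 2607 CP20M. The part of these starting levels in the result was not tested.

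VEGFA, the vascular endothelial growth factor, was at 14037, 13132 and 20030 CP20M in DMSO and at 11826, 9450 and 13973 CP20M in palbociclib. The fall of 0.41 ± 0.10 did not reach 1.5-fold, and VEGFA, which did not exceed 2957 CP20M in DMSO in the other lines, rose in H2052 (1.41) and H2452 (1.35) but was not called in MSTO-211H (0.28). The difference was -1.43 ± 0.28 (adjusted p = 0.00624). BNIP3, a mitophagy receptor, fell from 6842, 7237 and 6702 to 3927, 4686 and 4055 CP20M with no overlap (-0.72 ± 0.09, adjusted p = 0.00258), and stood at 0.76, 0.19 and 0.02 in the other lines. The glycolytic enzymes LDHA and PGK1, picked after their values were seen, were lower in all treated libraries without reaching 1.5-fold, LDHA at 19638 to 22111 CP20M after 26435 to 29360 and PGK1 at 15432 to 17060 CP20M after 19601 to 22604. ANGPTL4, a secreted lipase inhibitor, stayed at 18 to 43 CP20M in H28 and was not tested there. In H2452 it went from 121 to 603 CP20M up to 3972 to 8172 (difference -2.82 ± 0.37).

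**Figure D4:**
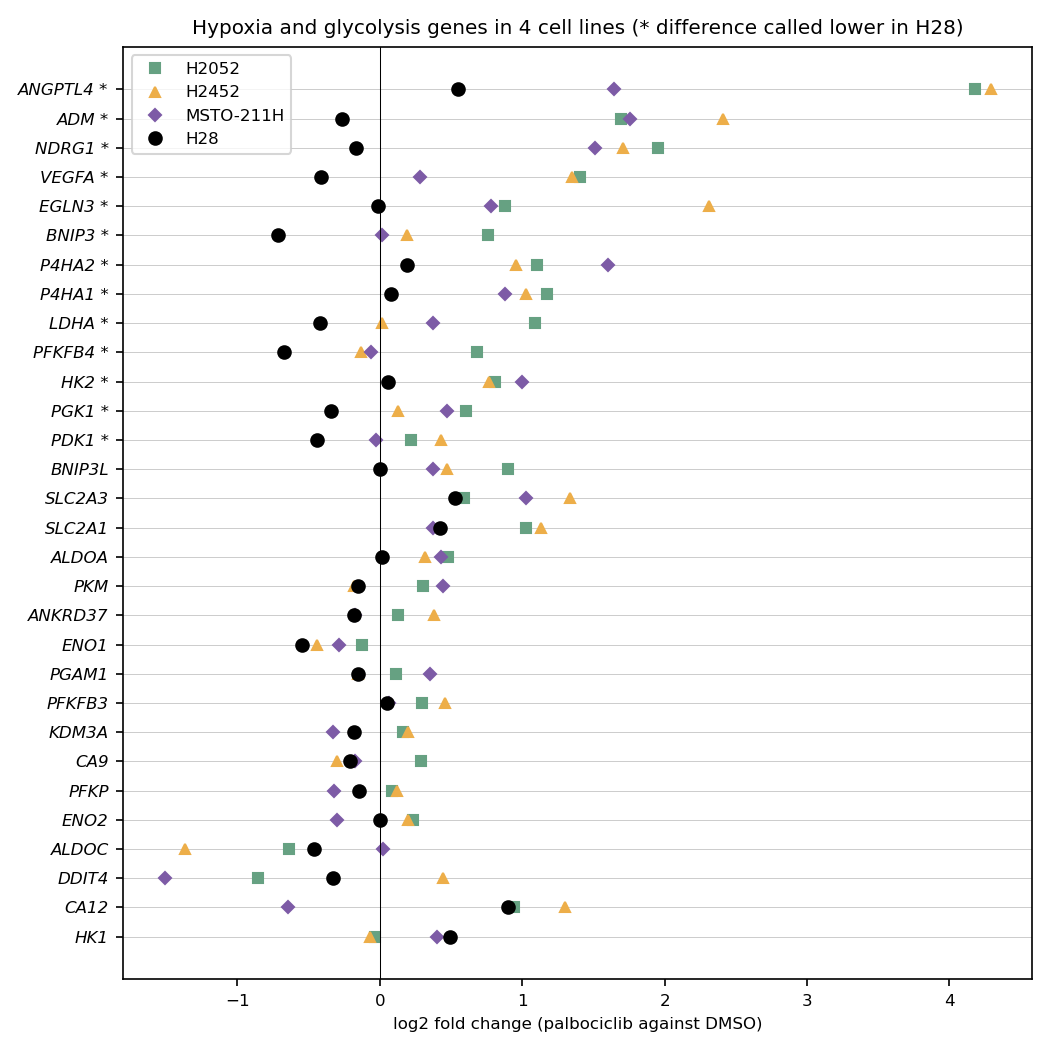
Log2 fold change of 30 hypoxia and glycolysis genes in H28 (black circles) and in the other 3 lines (coloured symbols), ordered by the difference, with an asterisk on the 13 genes called lower in H28. The black circles lie near or below 0 for most genes (median -0.15), while ANGPTL4, ADM and NDRG1 lie above 0 in each other line.

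Further genes raised in each other line and not called in H28 were AP1S3, JCAD and ITGB3, of 59 such genes in all. AP1S3, a clathrin adaptor subunit, was at 1425, 399 and 1674 CP20M in DMSO and at 1017, 556 and 1160 CP20M in palbociclib, with rises of 1.27, 1.71 and 3.32 elsewhere. JCAD, a junctional protein of endothelial cells, was at 0.14 ± 0.08 in H28 and rose by 1.43, 2.16 and 3.29 elsewhere. ITGB3, the integrin beta 3 chain, was high in H28 before treatment, at 11889 to 27270 CP20M, and at 8745 to 21758 CP20M afterwards. The other lines did not exceed 1155 CP20M even after its rise of 2.34, 1.18 and 1.28.

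In the reverse group 65 genes fell in each other line and were not called in H28. DPYSL3, a relative of DPYSL5, was at 757, 709 and 1482 CP20M in DMSO and at 805, 1868 and 1549 CP20M in palbociclib, where the log2 change was 1.39 in replicate 2 and 0.09 and 0.06 in replicates 1 and 3 (0.51 ± 0.25), and it fell by 1.27, by 1.52 and by 1.30 elsewhere. DEPDC1B, a cell cycle gene, was at 406, 488 and 474 CP20M in DMSO and 301, 470 and 126 CP20M in palbociclib, so that its pairs ran from -0.05 to -1.83. IMPA2, an inositol monophosphatase, SYNE2, a nuclear envelope spectrin, DNM1, a dynamin, and WNT7B, a Wnt ligand, had log2 fold changes of -0.11, -0.11, 0.09 and -0.11 in H28 and fell by between 0.86 and 2.01 in the other lines.

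The TGF-beta list had no member that rose in H28. Of 20 ligand, receptor and target genes tested 4 fell (INHBB, PMEPA1, SMAD7 and ID1) and 16 did not pass, with a median of -0.38 against -0.08 over all genes. Of all genes tested in H28 10.9% fell and 8.75% rose. The medians in H2052, H2452 and MSTO-211H were 0.41, -0.03 and 0.34, and 9 of 25 differences were called lower in H28 and none higher, beside 4.42% and 8.51% of all genes. The 25 include members that stayed under 100 CP20M in every H28 library, whose differences mostly reflect the other lines. Without H28 replicate 1 the lower differences numbered 5, and without the replicate block 3. INHBB, the activin beta B subunit, went from 642, 508 and 1140 to 234, 411 and 379 CP20M (-1.09 ± 0.24, adjusted p = 0.0151). Replicate 2 barely moved (-0.30), and the call was lost without replicate 1 or replicate 3. INHBB rose by 2.75 in H2452, and the difference was -2.44 ± 0.34 (adjusted p = 0.00104). PMEPA1, a feedback inhibitor of the pathway, was at 1285, 1299 and 3893 CP20M in DMSO and at 872, 1013 and 1242 CP20M in palbociclib (-0.85 ± 0.23).

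Matrix genes split. Of 21 collagen and matrix genes tested 5 rose and 4 fell, and of 36 differences 10 were lower and 2 higher in H28. The 36 include members that stayed under 100 CP20M in every H28 library, FBLN5 among them. Their differences mostly reflect the other lines. Among all genes 8.75% rose and 10.9% fell, and 4.42% of differences were lower and 8.51% higher. Without H28 replicate 1 the lower differences numbered 5, without replicate 3 they numbered 6 and without the replicate block 3. FN1, the gene of fibronectin, rose from 17960, 5215 and 51392 to 120336, 41466 and 308982 CP20M. The groups overlapped because the replicates differed in level, but each pair rose alike, by 2.74, 2.99 and 2.59 (2.77 ± 0.13, adjusted p = 0.000555). FN1 alone took 1.54% of all counted reads in palbociclib replicate 3. Its difference from the other lines, 1.10 ± 0.26, was not called without replicate 1, without replicate 2 or without the H2452 line. COL1A1, a collagen I chain, fell from 220, 88 and 273 to 17, 26 and 15 CP20M (-2.68 ± 0.39), with no called difference (adjusted p = 0.106). FBLN5, which organises elastic fibres, was at 10 to 25 CP20M in all H28 libraries and had log2 fold changes of 1.03, 1.81 and 4.06 elsewhere.

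Integrin and laminin genes rose in 6 of 19 cases and fell in 1, beside 8.75% and 10.9% of all genes. Of 24 differences 4 were higher and 3 lower in H28, beside 8.51% and 4.42% of all genes. ITGA3, a laminin receptor chain, went from 29680, 18921 and 40745 to 69161, 58071 and 77014 CP20M (1.25 ± 0.16, adjusted p = 0.00282), against 0.16, 0.45 and 0.15 elsewhere (difference 1.00 ± 0.21, adjusted p = 0.00872). ITGA1, a collagen receptor chain, fell from 374, 714 and 303 to 175, 248 and 92 CP20M (-1.39 ± 0.15).

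The study's senescence list was chosen on these samples. Of its 27 genes 19 reached the filter in H28, 15 rose, none fell and 4 did not pass, with a median of 0.94, beside 8.75% raised among all genes. Without replicate 1 there were 9 rises and without the replicate block 6. DPP4, a cell surface peptidase, rose from 1984, 2936 and 1814 to 19238, 12126 and 20192 CP20M, a 7.61-fold rise (adjusted p = 0.00144). C3, the central complement component, rose from 213, 1670 and 976 to 2317, 5010 and 3995 CP20M (2.33 ± 0.31). The 8 members that stayed under 100 CP20M in H28 were CCL5, ICAM1, IFIT2, IL1A, IL1B, IL6, OAS2 and TLR4, and IL6 and IL1B did not exceed 9 and 15 CP20M. IL6 had log2 fold changes of 1.79 in H2052 and 2.33 in MSTO-211H, and its difference did not pass (adjusted p = 0.106). Across the 27 genes 3 differences were higher in H28 (CCND2, FN1 and VCAM1) and 5 lower, among them IGFBP3, VEGFA, IFIT2 and CD82. Among all genes 8.51% of differences were higher and 4.42% lower. The 27 include the members under 100 CP20M in H28, IFIT2 among them, whose differences mostly reflect the other lines. The called differences of VCAM1 and CD82 were each lost under 14 of 22 alternatives.

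Of the complement and coagulation genes, 5 of 15 rose in H28, and 6 of 23 differences were lower and none higher, beside 8.75% raised, 4.42% lower and 8.51% higher among all genes. The 23 include members that stayed under 100 CP20M in every H28 library, SERPING1 among them. Their differences mostly reflect the other lines. SERPING1, the C1 inhibitor, was at 0 to 10 CP20M in H28 and had log2 fold changes of 1.54, 2.73 and 4.29 elsewhere (difference -2.88 ± 0.34). F3, tissue factor, was at 319, 170 and 140 CP20M before and 100, 209 and 76 CP20M after (-0.70 ± 0.33), with log2 fold changes of 1.07, 0.69 and 3.72 in H2052, H2452 and MSTO-211H (difference -2.53 ± 0.41).

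Of 19 NRF2 and metallothionein genes 6 responded higher in H28 and none lower, beside 8.51% and 4.42% of all genes. AKR1C1, an aldo-keto reductase, rose from 1121, 1083 and 376 to 2595, 1697 and 2777 CP20M (1.57 ± 0.37, adjusted p = 0.0195). It fell by 1.64 in H2452 and stood at -0.40 and -0.70 in H2052 and MSTO-211H, and the difference was 2.48 ± 0.50 (adjusted p = 0.00704). The members called included AKR1C2 and AKR1C3, close relatives of AKR1C1 that can share reads with it, and AKR1B10. The count was 1 without H28 replicate 3, 3 without replicate 1 and 2 without replicate 2 of H2052.

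Of 24 growth factor receptor and ligand genes tested 2 rose and 7 fell in H28, beside 8.75% and 10.9% of all genes. Of 31 differences 8 were lower and 3 higher, beside 4.42% and 8.51%. NRG1, the ERBB ligand neuregulin 1, fell from 2172, 1453 and 2521 to 831, 797 and 934 CP20M (-1.22 ± 0.13, adjusted p = 0.00177), with a difference of -1.03 ± 0.16 (adjusted p = 0.00186). KIT, the stem cell factor receptor, fell from 289, 44 and 230 to 106, 11 and 41 CP20M (-1.65 ± 0.24). EREG, epiregulin, was at 217, 170 and 1541 CP20M in DMSO and 72, 138 and 281 CP20M in palbociclib, and its call was lost without replicate 1 or replicate 3. AXL, a receptor kinase, fell by 0.99 ± 0.18 in H28 and by 0.94, by 1.09 and by 0.90 elsewhere. The count of lower differences was 2 without the replicate block, 4 without H28 replicate 3, 5 without replicate 1 and 5 without replicate 1 of H2452.

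Antigen presentation genes rose in 7 of 16 cases with none falling, beside 8.75% and 10.9% of all genes. TAP1, the peptide transporter, rose from 498, 575 and 802 to 1190, 952 and 1558 CP20M. TAP1 stood at -0.48, 0.09 and 0.26 elsewhere (difference 1.01 ± 0.17, adjusted p = 0.00283).

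Lipid and lysosome genes had called changes in H28, and some differed from the other lines. The difference was called higher in H28 for 4 and lower for 5 of 32 lysosome genes, and higher for 4 and lower for 2 of 32 cholesterol and fatty acid genes, beside 8.51% higher and 4.42% lower among all genes. Of 30 cholesterol and fatty acid genes tested 12 fell and 1 rose (median -0.43, with -0.60, -0.54 and -0.23 over the list in H2052, H2452 and MSTO-211H). Of all genes tested in H28 10.9% fell and 8.75% rose. INSIG1, the sterol sensor partner of SREBP processing, fell from 2266, 943 and 1968 to 581, 254 and 740 CP20M (-1.73 ± 0.13). ABCA1, the cholesterol exporter, rose from 987, 369 and 1807 to 3135, 2272 and 4797 CP20M (1.88 ± 0.21). Of 30 lysosome genes 13 rose and none fell (median 0.42), beside 8.75% and 10.9% of all genes. CTSS, cathepsin S, rose from 29, 80 and 72 to 136, 171 and 203 CP20M and set H28 apart (difference 1.51 ± 0.25, adjusted p = 0.00266). Leaving out replicate 1 cut the lysosome count to 6 and leaving out replicate 3 to 8, and the cholesterol count to 7 without replicate 1. Without the replicate block the cholesterol count was 5.

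**Figure D5:**
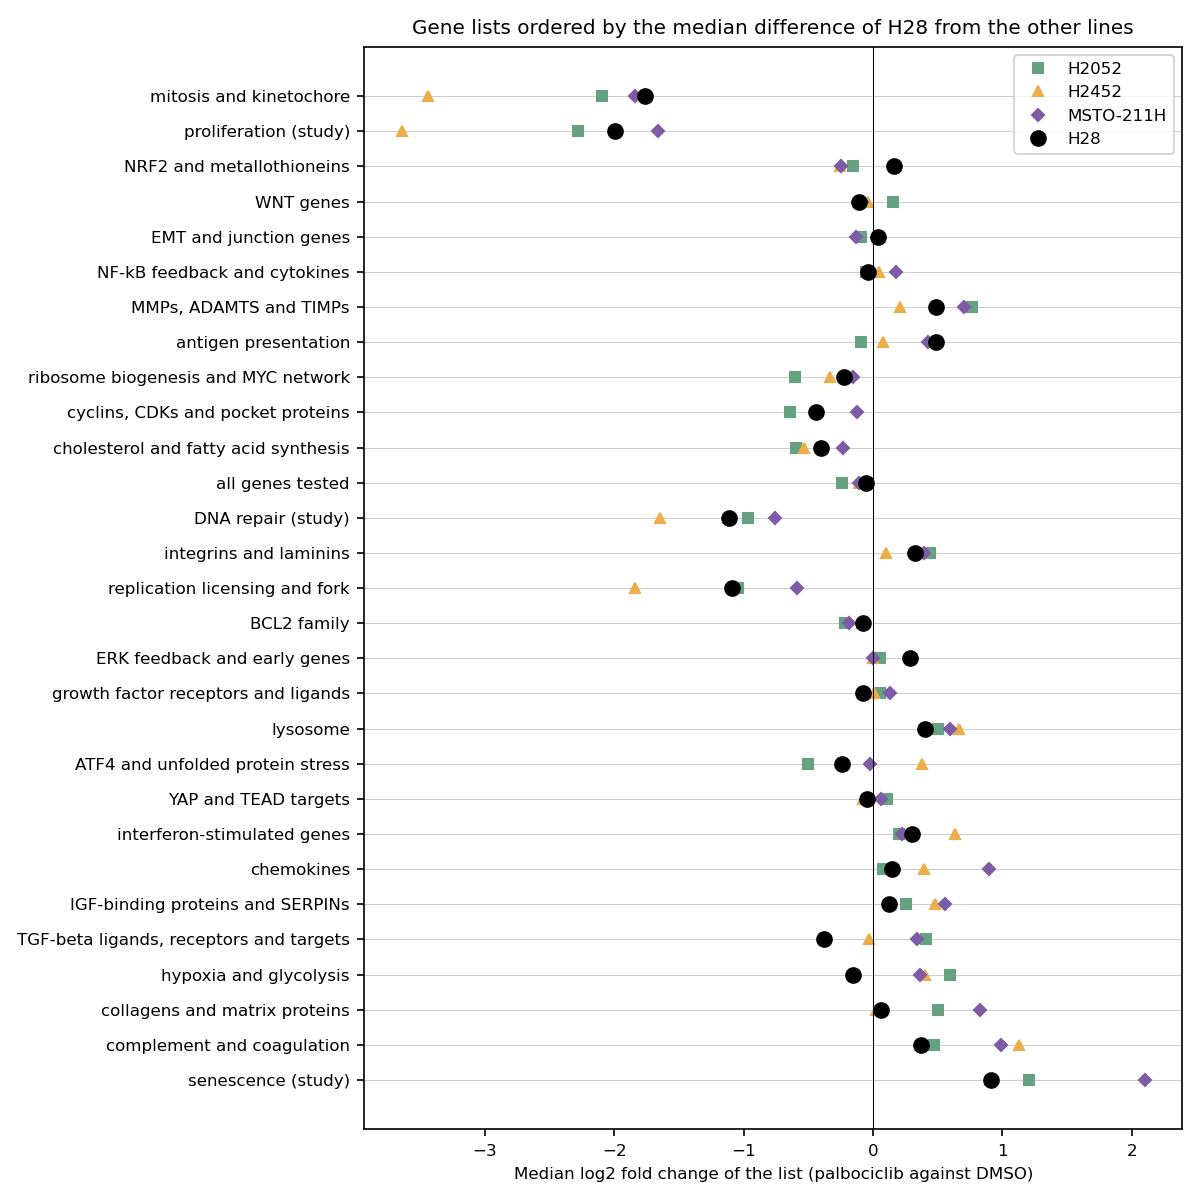
Median log2 fold change of 28 gene lists and of all genes tested in H28 (black circles) and the other 3 lines (coloured symbols), ordered by the median difference of H28 from the others. H28 lies lowest of the 4 lines for the hypoxia and TGF-beta lists (-0.15 and -0.38). It lies lowest for other lists too, among them complement and coagulation (0.37) and lysosome (0.40). H28 lies to the right of H2452 for the mitosis and proliferation lists.

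Transcripts of the mitochondrial genome rose as a block. They took 0.844 to 1.16% of counted reads in DMSO and 1.63 to 2.37% in palbociclib. Of 37 such genes tested 35 were called up, 28 with no overlap, with a median of 1.01, beside 8.75% called up and 14.5% without overlap among all genes. The difference from the other lines was called higher in H28 for 2 and lower for 0, beside 8.51% and 4.42% of all genes. A difference that was not called is not thereby shown to be absent. In bulk RNA, more mitochondrial transcript and less of all other RNA per cell cannot be told apart. The washout library held 3.8%.

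In the washout library the genes that set H28 apart were read as a set and singly. The 369 raised genes stood at a median of -0.07 on the log2 scale against palbociclib replicate 3 and the 112 lowered genes at 0.16, beside 0.03 over all genes tested. AQP1 was at 1025 CP20M against 1516, CRYAB at 2281 against 2124, MMP7 at 3247 against 2512, and IGF2 at 164 against 173. AQP1 was thus nearer to its DMSO level than in palbociclib replicate 3. So were TNC (281 from 534 CP20M), CCND2 (432 from 616), ATP8A2 (56 from 116) and NPBWR1 (39 from 79). Among the lowered genes DPYSL5 stood at 275 from 143 and SYT8 at 113 from 66. With 1 washout library these values have no error.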

How the data were processed

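RNA was sequenced from 6 H28 libraries (3 DMSO, 3 palbociclib) and from 16 of H2052, H2452 and MSTO-211H. According to the methods, reads were trimmed with Trimmomatic 0.36, aligned to GRCh38 with STAR 2.5.3 and counted with HTSeq 0.9.1, and the authors used DESeq2 for their tests. The deposited values are a score per gene, reads scaled to a total of 20000000 and rounded up by the authors to whole numbers (CP20M), so each library sums to the same total and raw counts cannot be tested. The strand setting of the counting is not given in the sources used here.

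Genes with 100 CP20M or more in at least 1 library were tested with limma 3.58.1 (R 4.3.3) after a log2(CP20M + 10) transformation, each experiment being a block. A pseudocount understates the change of low genes. A call needed a fold change over 1.5 and a Benjamini-Hochberg adjusted p under 0.05. Scripts were checked on simulated data. Libraries with the same number deviated together (r of 0.585, 0.565 and 0.533 for pairs 1, 2 and 3), so the number pairs them. The study describes the replicates as independent experiments.

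Named genes were the 8 largest rises and falls, the 10 largest rises and falls that set H28 apart, the 6 largest differences where the other lines moved and H28 did not or moved oppositely, and of each gene list the 3 largest called rises, falls and differences, with all members of the study's lists. Other genes were named after their values were seen. Members and lists were chosen with earlier results of these data known. Alternatives covered the block, pseudocount, filter, scaling, trend and each replicate pair left out, and for the difference also each other line left out. Lists without counts in the text are given by their medians only, in the plot of list medians, and some genes and lists are not reported here.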

Additional observations from a re-analysis of the deposited data

Results flagged for a closer look

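Each gene named here drew attention because its response to palbociclib in H28 differed from the mean response of H2052, H2452 and MSTO-211H in the test of that difference (limma, over 22 libraries). The value beside each gene is that difference on the log2 scale. The causes were not tested.

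Genes that rose in H28 and set it apart were AQP1 (5.53), AC004691.2 (4.29), CRYAB (4.10), KRT20 (3.77), MMP7 (3.32), SLC17A3 (2.92), NPBWR1 (2.91), GSTA1 (2.65) and TM4SF4 (2.63). AC004691.2 overlaps AQP1 and can hold its reads. SLC17A3 and GSTA1 were at 0 in all 16 libraries of the other lines. KRT20 and TM4SF4 did not exceed 3 and 4 CP20M there. The differences of these genes are therefore the H28 change almost alone.

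Genes that rose in H28 and fell in at least 2 other lines were TNC (4.79), SFN (2.75), HIST1H2BE (2.53), ITGA7 (2.43) and FIGNL2 (2.39). FIGNL2 did not exceed 44 CP20M in H2052 and 27 CP20M in H2452, and SFN did not exceed 70 CP20M in H2052.

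Genes that fell in each other line and were not called in H28 were DPYSL3 (1.87), DEPDC1B (1.82), IMPA2 (1.44), SYNE2 (1.35), DNM1 (1.29) and WNT7B (1.28).

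Genes that rose in each other line and were not called in H28 were NDRG1 (-1.89), ITGB3 (-1.94), JCAD (-2.15), ADM (-2.22), AP1S3 (-2.28) and IGFBP3 (-3.32).

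Genes that fell in H28 and set it apart were PMP22 (-1.60), SYT8 (-1.83), COL14A1 (-2.13), CYP1B1 (-2.33), DPYSL5 (-2.42), INHBB (-2.44), AC132217.1 (-2.85), INS-IGF2 (-3.10), COL5A1 (-3.40) and IGF2 (-3.59). INS-IGF2 and AC132217.1 overlap IGF2. In DMSO IGF2 was at 3 to 9 CP20M in H2452 and 8 to 31 in MSTO-211H, where a fall could hardly have been seen. DPYSL5, COL14A1 and SYT8 did not exceed 3, 8 and 2 CP20M in the other lines, where no fall could have been seen. PMP22 rose in each other line and COL5A1 in 2 of them.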

How the results depend on the processing

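No named result reversed under any alternative. Of 179 named log2 fold changes called in H28, 108 kept the call under every alternative and 71 lost it under at least 1. Of 114 called differences 53 kept it and 61 lost it. Without the replicate block, 765 genes were called up in H28 in place of 1232, and the difference was called lower for 312 genes and higher for 632, in place of 740 and 1427. Upper-quartile scaling called 1324 lower and 865 higher. Leaving out 1 replicate at a time gave 791 to 1992 genes down and 573 to 1540 up in H28, and 391 to 906 lower and 624 to 1645 higher in the difference. Removing H28 replicate 1 gave the lowest of each of these 4 ranges. Depth limits genes near 10 CP20M, where 1 read moves the value most.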
